A study of Drosophila melanogaster with 7 samples.

Results

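The JAK/STAT genes of Drosophila midgut tumors were described in single-cell transcript counts. They were chosen by name and are 7 of the 17619 entries in the deposited matrices: the ligand genes upd1, upd2 and upd3, the receptor gene dome, the kinase gene hop, the transcription factor gene Stat92E and the feedback gene Socs36E. Each of 6 libraries held 1 individual tumor (Tind1 to Tind6) and 1 library held a group of 6 tumors (Tgrp). The flies descended from a cross of yw,HS-flp, HS-mflp5 flies carrying esg-gal4,UAS-flybow and FRT82B,Tub-Gal80 with yw,HS-flp flies carrying UAS-RasV12 and the chromosome FRT82B,Apc2N175K,ApcQ8. A heat shock of 2 h at 37°C was given 2 to 3 days after eclosion, and flies whose abdomens showed GFP were picked at least 21 days later. All 7 libraries share these alleles and this treatment, so there is no control tissue, and differences between tumors are differences within 1 genotype. The labels give a minimum age and not each tumor's own, but the paper's supplement lists an age for each library. There Tind3 is the oldest tumor and the only one of its age. Tind1, Tind2 and Tind4 share a younger age, and Tind5, Tind6 and Tgrp the youngest. What sets Tind3 apart by age and what sets it apart as a tumor cannot be told apart here, and age was not tested. The esg-gal4 driver is active in intestinal stem cells and enteroblasts, so expression of the Ras transgene depends on that driver and on the loss of Gal80 from the clone.

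The pathway is the fly counterpart of cytokine signaling in mammals. The secreted ligands Upd1, Upd2 and Upd3 bind the receptor Domeless, the kinase Hopscotch is activated, and phosphorylated Stat92E enters the nucleus, where Socs36E is a well-known target whose product dampens the receptor complex. In the adult midgut, stressed or damaged cells are known to produce upd3 and upd2, and the ligands act on stem cells and enteroblasts to promote division and differentiation. JNK signaling, of which puc and Mmp1 are standard targets, is a known inducer of upd genes in wounded and stressed fly epithelia.

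Counts were taken from 7998 of 9914 deposited cells, those with 100 to 2000 detected genes and at most 15% mitochondrial UMIs. A UMI is a molecular tag that counts 1 captured transcript once, and levels are given as UMIs of a gene per 1000000 UMIs of the kept cells (CPM). Kept cells numbered 309 to 2922 a library, their summed UMIs 180582 to 5133789, and their median depth 317 to 2383.5 UMIs. Tind4 and Tind5 shared 116 cell barcodes, where other pairs of libraries shared at most 3. Visceral muscle markers summed to 6.58 to 125 CPM and hemocyte markers to 0 to 18.1 CPM, whereas stem cell and enteroblast markers summed to 876 to 1214 CPM. The 12 enterocyte markers summed to 856 to 2008 CPM, from 5 to 9 detected genes, with the digestive enzyme gene Jon99Ciii and the mannosidase gene LManVI at 0 in all 7 libraries.

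In genome release 6 the 3 ligand genes lie together on the X chromosome within 68638 bases that hold 7 annotated genes. upd2 is at X:18240654-18243284 on the minus strand, upd3 at X:18277233-18284596 on the plus strand and upd1 at X:18305354-18309291 on the minus strand. dome (X:19676061-19683518) and hop (X:11360930-11368098) are on the minus strand of the same chromosome. Stat92E is at 3R:20535323-20552311 and Socs36E at 2L:18138675-18152417, both on the minus strand. A lncRNA gene, lncRNA:CR44478, overlaps Socs36E on the other strand.

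Of the ligands, upd2 and upd3 were detected in all libraries and upd1 was close to the detection limit. upd1, the founding ligand of the family, had 13 UMIs in 13 cells of all 7998: 9 in Tind1, 1 in Tind5, 3 in Tgrp and 0 in the other 4 libraries. A count of 0 allowed up to 1.35 CPM in Tind4, 2.47 in Tind2, 13.2 in Tind6 and 16.6 in Tind3, so the shallow libraries do not bound it tightly.

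upd2, a ligand that is also released by the fat body in fed flies, was measured at 30.3, 35.4, 116, 104, 52.6 and 136 CPM in Tind1 to Tind6 in turn, which gives 79.1 ± 45.3 CPM (SD, n = 6). Tgrp had 139 CPM. Tind1, Tind2 and Tind5 lay low and Tind3, Tind4 and Tind6 lay high. Of 15 pairs of individual tumors, 8 had 95% Poisson intervals that did not overlap, and of neighbours in the order only Tind5 and Tind4 were apart. upd3, the ligand most often reported after gut damage, was at 53.5, 39.5, 144, 86.7, 63.4 and 43.9 CPM in Tind1 to Tind6 in turn, or 71.8 ± 39.1 CPM (SD, n = 6), and at 73.8 CPM in Tgrp. Here Tind3 was highest, 6 of 15 pairs had intervals apart, and no neighbours in the order did.

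The balance between the ligands differed between tumors. upd2 made up 36.1% of the upd2 and upd3 UMIs in Tind1 (95% exact binomial interval 31.4% to 41.0%), 47.3% in Tind2, 44.7% in Tind3, 54.5% in Tind4 (49.6% to 59.3%), 45.3% in Tind5, 75.6% in Tind6 (59.7% to 87.6%) and 65.3% in Tgrp (62.4% to 68.1%). Tind1 was the library with more upd3 than upd2 beyond its counting error, and Tind6 and Tgrp were the libraries with more upd2. In the labels, Tind6 and Tgrp also carry script names of another series than the other libraries. What that series stands for is not given, and its part in the balance was not tested. The intervals cover counting error within a library only.

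The transducing components were present at low levels. dome was at 65.5, 42.8, 44.3, 47.4, 45.3 and 110 CPM in Tind1 to Tind6 in turn (59.2 ± 26.1, SD, n = 6), with 63.1 CPM in Tgrp. Tind6 was highest, on 25 UMIs, but its interval overlapped that of Tind1. 5 of 15 pairs had intervals apart, and of neighbours in the order only Tind4 and Tind1 did. hop was the least abundant transducer, at 17.3, 14.8, 11.1, 22.6, 7.25 and 26.3 CPM in Tind1 to Tind6 (16.6 ± 7.10, SD, n = 6) and 10.3 CPM in Tgrp. It rested on 217 UMIs in all libraries, and no pair of tumors had intervals apart. Stat92E was at 102, 63.3, 116, 121, 76.1 and 162 CPM in Tind1 to Tind6 in turn (107 ± 35.3, SD, n = 6), and at 82.0 CPM in Tgrp.

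Socs36E was the most abundant of the 7 genes on this scale, which counts 3′ ends and carries no term for gene length. Its level was 620, 265, 471, 559, 328 and 531 CPM in Tind1 to Tind6 in turn, or 462 ± 139 CPM (SD, n = 6), and 469 CPM in Tgrp. Its SD was 30.0% of the mean, against 57.2% for upd2, 54.5% for upd3, 44.2% for dome, 42.9% for hop and 33.1% for Stat92E. Counting error alone would give 6.91% for Socs36E, 19.4% for upd2, 19.6% for upd3, 20.5% for dome, 36.2% for hop and 15.4% for Stat92E, so most of the spread of hop is of the size that counting gives. Tind2 and Tind5 were low, and the tumor lowest in Socs36E, Tind2, was also lowest in upd3, dome and Stat92E. The highest single cell held 120 Socs36E UMIs in Tind4 and 43 in Tind1, but 4 to 10 in the other libraries. For upd2 it held 3 to 11 UMIs, more than for Socs36E in Tind2 (10 against 8) and Tgrp (11 against 10). These maxima carry no correction for the higher level of Socs36E, so they do not show which gene was more concentrated in some cells.

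**Figure D1:**
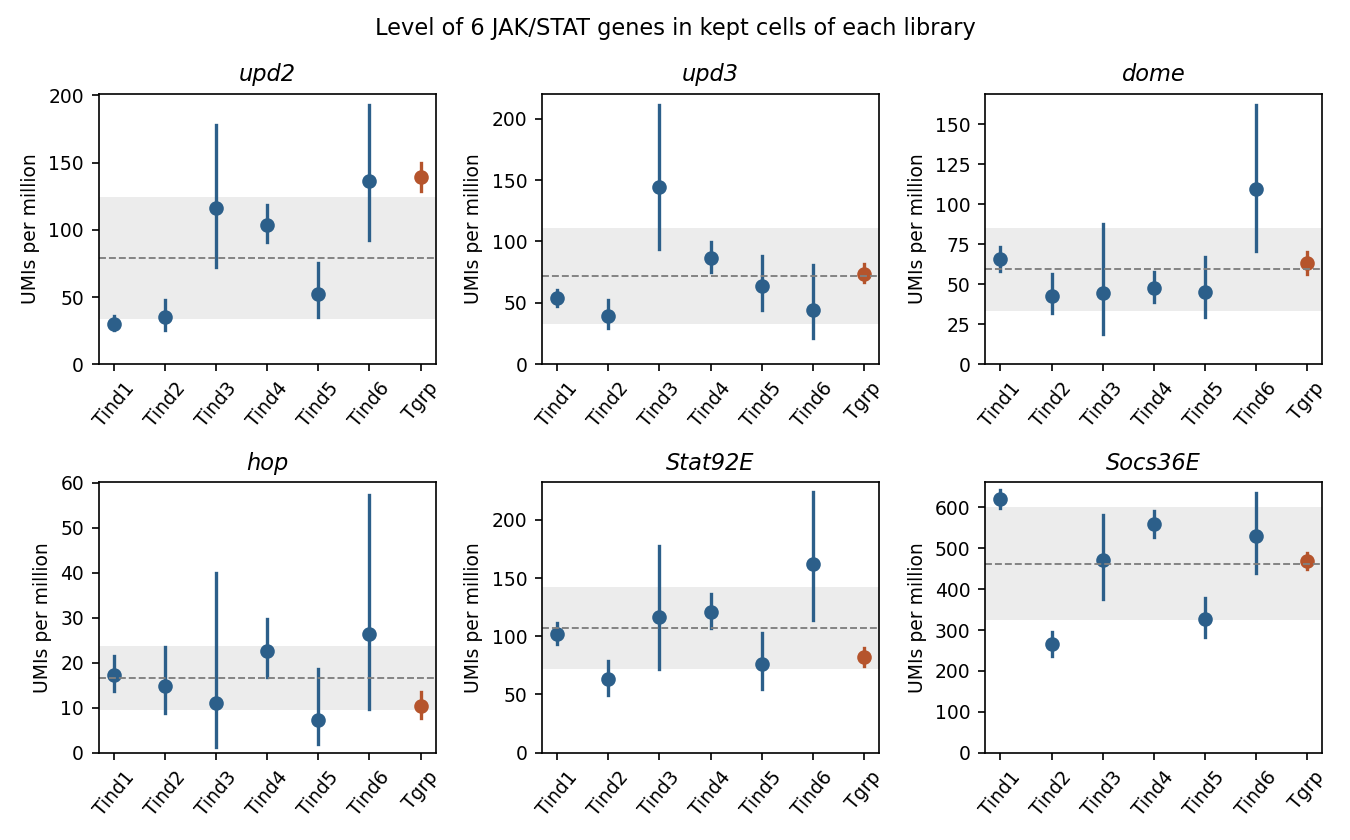
CPM (vertical axes, from 0) of upd2, upd3, dome, hop, Stat92E and Socs36E in the 6 individual tumors (blue) and in the group of 6 tumors (brown). Bars are 95% Poisson intervals of the count, the dashed line and gray band are the mean ± SD of the 6 individual tumors, and Socs36E, at 265 to 620 CPM, lies above the other genes while Tind3 and Tind6 have the widest bars.

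Detection was then compared at equal depth, with 300 UMIs drawn from each of the 7694 cells that had as many; 181 cells of Tind3, 87 of Tind5 and 36 of Tind6 were too shallow. The share of cells with a drawn UMI averaged 2.16% for upd2, 2.10% for upd3, 1.78% for dome, 0.405% for hop, 3.05% for Stat92E and 12.1% for Socs36E over the 6 tumors. At full depth 706 of the 7998 cells had an upd2 UMI, 765 an upd3 UMI and 3351 a Socs36E UMI. Cells with a hormone transcript were taken as cells that should lack the ligands, which was not tested in these tumors. They had shares whose intervals overlapped those of the other cells. In the 339 cells with a UMI of any of 10 hormone genes the share was 2.06% for upd2 and 1.77% for upd3, against 2.42% and 1.77% in the other cells, at median depths of 1313 and 1284 UMIs. Most of the 339 were set by ITP. In the 65 cells with a UMI of another hormone gene, at a median depth of 975 UMIs, the shares were 1.54% for upd2 (0.0389% to 8.28%) and 4.62% for upd3 (0.962% to 12.9%), against 2.41% and 1.74% in the other cells. A single ligand UMI was therefore not read as expression by that cell. Classes of cells were compared in level and in how often UMIs were found together. A positive cell is below a cell with such a UMI, and not a cell shown to express the gene.

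The classes were made from the 300 drawn UMIs, so that depth did not set them, and levels were then compared at full depth within each tumor, by edgeR's quasi-likelihood test with the tumor as a block and adjustment over all genes tested. Class genes were left out of their own comparison. Of 62 pairs of a gene and a comparison, 36 passed the filter on low counts and 6 were called at an adjusted p under 0.05. The share of all tested genes that was called differed between the 10 comparisons, from 0.239% in Socs36E-positive cells to 22% in progenitor-marker-positive cells. upd1 and hop did not pass the filter in any of the 10 comparisons. The filter takes the sums of both classes together, so a gene can pass it through the class in which it is high. This bears on the calls of upd2 in upd3-positive and of upd3 in upd2-positive cells, which are among the 6.

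The clearest difference was by stress markers. These markers were chosen with earlier results of these data known, so the tests below are not independent of that choice. Cells with a drawn UMI of Mmp1, a matrix metalloproteinase, puc, a JNK phosphatase, Ets21C, a stress-induced transcription factor, or Gadd45, a stress-response gene, carried more of both ligands than the other cells of the same tumor. There were 58 to 331 such cells a tumor, at median depths of 479 to 2585 UMIs, against 518.5 to 2332 in the marker-negative cells. upd2 was at 67.2 against 23.8 CPM in Tind1, at 109 against 21.5 in Tind2 and, in Tind3 to Tind6 in turn, at 204 against 70.4, 232 against 68.1, 99.9 against 39.1 and 162 against 136. It was thus higher in 6 of 6 tumors, least so in Tind6. The fold was 3.00 (log2 1.59 ± 0.19, SE, adjusted p = 6.4e-07). Tgrp, which did not enter the fit, had 253 against 116 CPM.

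upd3 was at 78.1 against 49.2, 52.1 against 37.1, 204 against 101, 182 against 60.0, 99.9 against 51.4 and 122 against 23.7 CPM in Tind1 to Tind6 in turn. It too was higher in 6 of 6 tumors, 2.13-fold (log2 1.09 ± 0.19, SE, adjusted p = 0.00023), and Tgrp had 121 against 64.5 CPM. Socs36E rose less. It was at 798 against 588, 328 against 253, 657 against 442, 580 against 553, 441 against 294 and 709 against 492 CPM in Tind1 to Tind6 in turn, or 1.30-fold higher (log2 0.38 ± 0.12, SE, adjusted p = 0.033). The direction was shared by 6 of 6 tumors and by Tgrp (559 against 451 CPM), but the adjusted p passed 0.05 without Tind1 (0.13), Tind2 (0.075), Tind3 (0.053), Tind5 (0.077) or Tind6 (0.071).

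Of the 5 genes tested there, 3 were higher, against 6.62% of all 2749 genes tested, where 9.09% were called in either direction. The receptor and transcription factor were not called: dome had a log2 fold change of -0.29 ± 0.22 (adjusted p = 0.43, higher in 2 of 6 tumors) and Stat92E of 0.14 ± 0.18 (adjusted p = 0.67, higher in 4 of 6). Among the other pathway genes, 8 of the 11 listed regulators were tested, 1 rose and 1 fell, with a median log2 of -0.13 against -0.02 for all genes. The one that rose was ken, a BTB-domain repressor that shares targets with Stat92E (log2 0.67 ± 0.18, adjusted p = 0.015). The one that fell was lwr, the SUMO-conjugating enzyme (log2 -0.56 ± 0.16, adjusted p = 0.028). Of 14 targets named from fly work, 3 passed the filter and none was called. The Turandot stress peptide genes TotB, TotX, TotZ and TotF were at 0 in every library. Of the 10 JNK and wound genes outside the class, 6 were tested and the pro-apoptotic gene hid rose (log2 1.25 ± 0.15, adjusted p = 6.4e-07).

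Markers of other cell types moved with this class in part. Of the 4 enterocyte genes tested, Myo31DF, a brush-border myosin, and Ssk, a septate junction protein, rose (log2 0.66 and 0.45, adjusted p = 0.0096 and 0.031), and the summed level of the 12 enterocyte markers was 1047 to 2016 CPM in the positive cells and 797 to 2068 in the negative cells of the 6 tumors. ITP, a hormone gene and the single enteroendocrine marker tested, was also higher (log2 0.49, adjusted p = 0.032). Hemocyte markers summed to at most 12.4 CPM in the positive cells, with 0 in 3 tumors, and muscle markers to 0 to 218 CPM, with 99.3 in the negative cells of Tind4 and 4.88 to 30.2 in those of the other tumors. The part of these markers in the ligand difference was not tested.

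**Figure D2:**
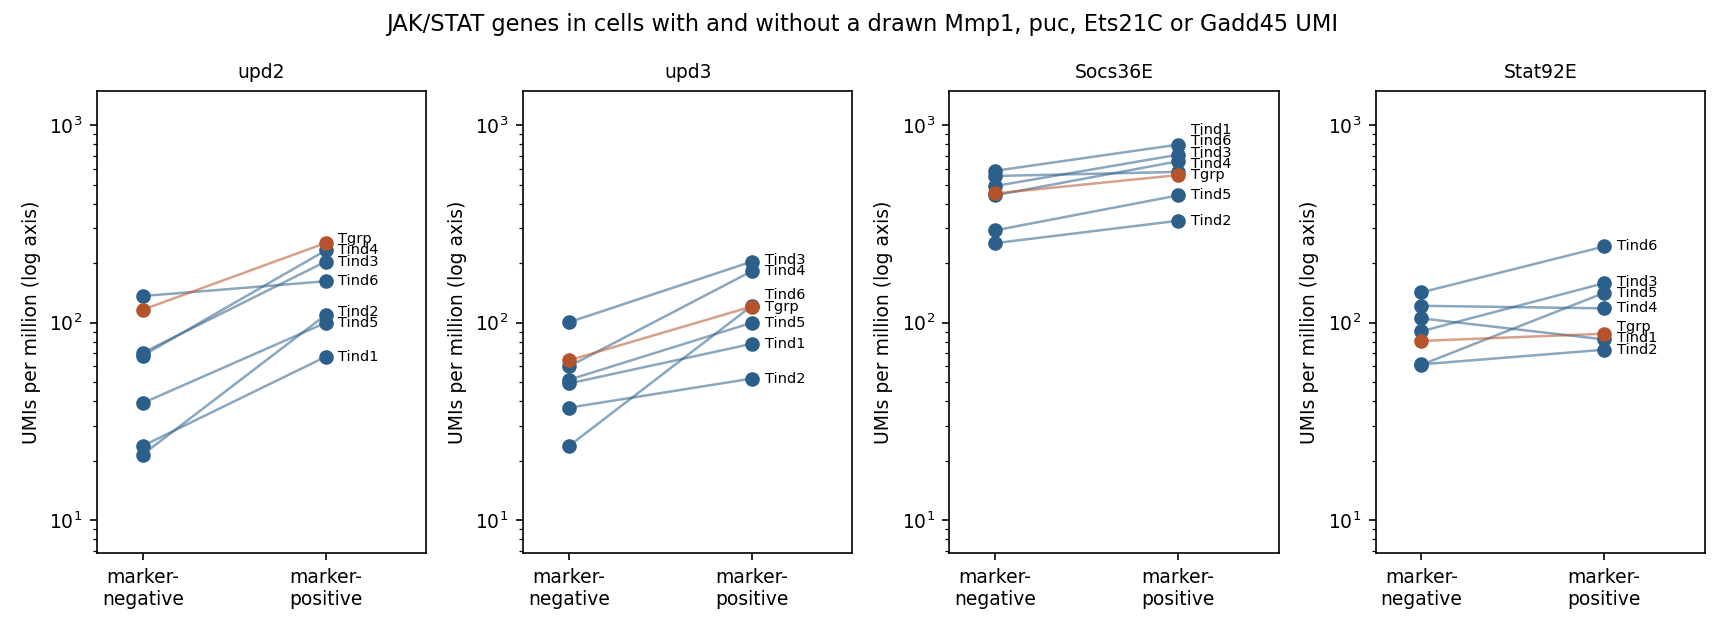
Level of upd2, upd3, Socs36E and Stat92E (CPM, log axis) in cells with and without a drawn UMI of Mmp1, puc, Ets21C or Gadd45, with 1 line for each individual tumor (blue) and for the group of 6 tumors (brown). The upd2, upd3 and Socs36E lines rise in every library, steepest for upd2 in Tind2 (21.5 to 109 CPM) and for upd3 in Tind6 (23.7 to 122 CPM), and the Stat92E lines go both ways.

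Cells with division transcripts were lower in upd2 in 5 of 6 tumors, but the call depended on the setting. This class had a drawn UMI of 1 of 12 genes of DNA replication or mitosis, such as CycB, PCNA or polo. upd2 was at 17.1 against 33.2, 22.8 against 36.9, 151 against 102, 37.1 against 116, 34.3 against 56.6 and 100 against 162 CPM in Tind1 to Tind6 in turn. Its log2 fold change was -1.15 ± 0.24 (SE, adjusted p = 0.0027), lower in 5 of 6 tumors, where 1.53% of all genes tested were called lower and 2.18% in either direction. Tgrp had 95.6 against 147 CPM. The value in Tind3 rested on 4 UMIs, and the call was lost in a second random draw of the 300 UMIs (log2 -0.48, adjusted p = 0.25) and without Tind1 (adjusted p = 0.11). It was also lost without the 5% deepest cells (log2 -0.70, adjusted p = 0.18), with a mitochondrial limit of 30% (-0.85, adjusted p = 0.085) and without the replicate block. upd3 was not called (log2 -0.38 ± 0.20, adjusted p = 0.34), nor were dome (0.32 ± 0.19, adjusted p = 0.41), Stat92E (-0.06 ± 0.17, adjusted p = 0.95) and Socs36E (0.12 ± 0.13, adjusted p = 0.72).

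In cells with a drawn UMI of the progenitor genes esg or Delta none of the 3 JAK/STAT genes tested was called, where 22% of all genes were. Socs36E had a log2 fold change of -0.33 ± 0.14 (adjusted p = 0.086, lower in 4 of 6 tumors), and it was called lower with Tgrp as a further block (-0.35, adjusted p = 0.015) and with 500 UMIs drawn (-0.48, adjusted p = 0.0198). dome was at 0.23 ± 0.25 and Stat92E at -0.06 ± 0.23, and upd2 and upd3 did not pass the filter there. On 26 UMIs in all, upd3 was at 46.1 against 54.0 CPM in Tind1, 18.5 against 41.5 in Tind2 and, for the rest in turn, 64.2 against 141, 40.1 against 91.3, 19.7 against 66.9 and 28.1 against 49.4 CPM, lower in 6 of 6 tumors. On 19 UMIs upd2 was lower in 5 of 6. Tgrp had 59.2 against 75.3 CPM of upd3 and 121 against 141 of upd2. These were not tested. In cells positive for nub, Myo31DF, Ssk, mesh or Tsp2A, genes of enterocyte identity and junctions, none of 5 was called, against 12.4% of all genes. The values ran from -0.12 ± 0.23 for upd2 to 0.39 ± 0.22 for upd3 (adjusted p = 0.30). upd3 was called higher with 500 UMIs drawn (0.61, adjusted p = 0.041) and with full-depth classes (0.56, adjusted p = 0.038), and Socs36E, higher in 6 of 6 tumors (0.25 ± 0.15, adjusted p = 0.32), was called with 500 UMIs drawn (0.49, adjusted p = 0.014). Whether the classes differ from each other in these changes was not tested.

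**Figure D3:**
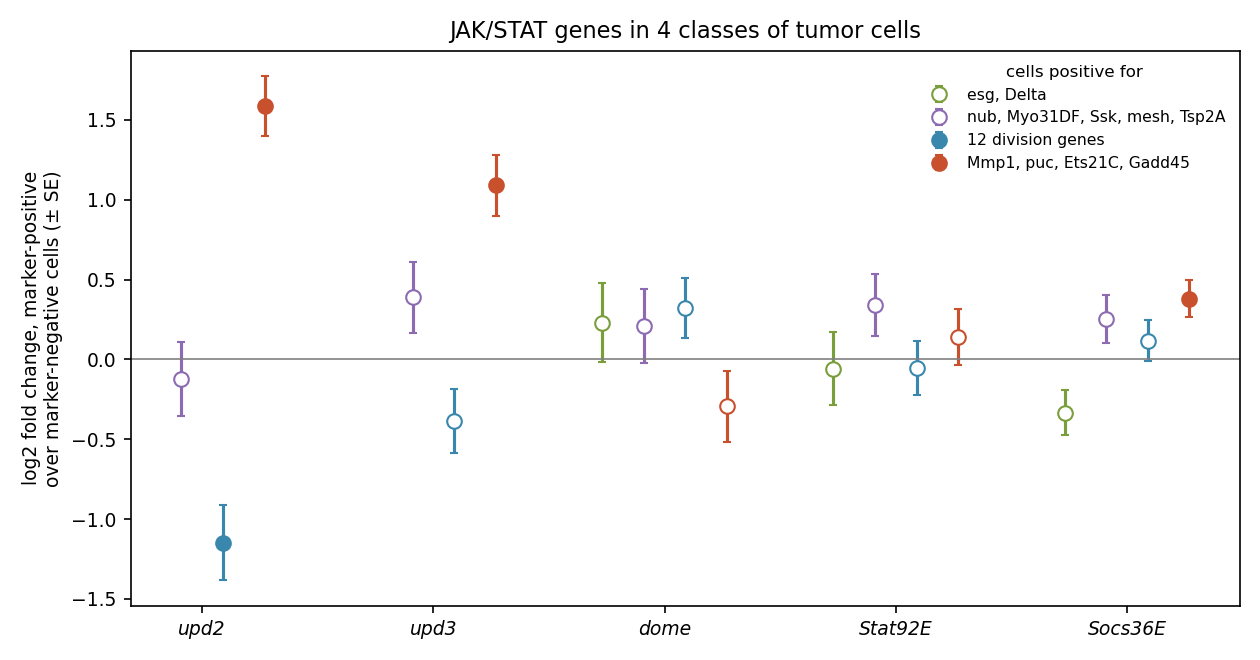
Log2 fold change (± SE) of upd2, upd3, dome, Stat92E and Socs36E in cells positive over cells negative for 4 marker groups: progenitor (green), enterocyte (purple), division (blue) and stress genes (red), over 6 tumors. Filled points have an adjusted p under 0.05: upd2, upd3 and Socs36E in stress-marker-positive cells (1.59, 1.09 and 0.38) and upd2 in division-marker-positive cells (-1.15), and a missing point did not pass the filter.

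The stress-marker relation was then counted from the side of the ligands. At 300 UMIs 141 cells of the 6 tumors had a ligand UMI, 10 to 40 a tumor, and 34.0% of them also had a stress-marker UMI, against 18.5% of all cells (48 cells, where 28.8 would follow from the shares within each tumor). In Tgrp it was 32.7% of 171 ligand-positive cells, against 18.3%. For upd2 alone 43.5% of 69 positive cells of the 6 tumors and 32.8% of 116 in Tgrp had a stress-marker UMI, and for upd3 alone 27.0% of 74 and 35.5% of 62, so the order of the ligands was not the same in the tumors and in Tgrp. Division markers gave another picture than the levels did. They were found in 10 upd2-positive cells of the 6 tumors where 11.3 would follow and in 15 of Tgrp where 17.0 would, but in 4 upd3-positive cells where 11.9 would follow and in 5 of Tgrp where 9.08 would. The lower upd2 level in division-marker-positive cells was thus not matched by a like deficit of upd2-positive cells.

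Across the transcriptome 26 genes rose and 16 fell in ligand-positive cells of 1259 tested (3.34% called), and 24 of the 42 moved the same way in all 6 tumors. The 10 largest of these rises began with Fas3, a septate junction adhesion protein, at 342 ± 149 against 95.6 ± 67.9 CPM (SD, n = 6; log2 1.72 ± 0.31, adjusted p = 0.00065). It was followed by the mitochondrial carrier SCaMC (log2 1.54), the ABC transporter MRP (1.39), the BMP-binding protein cv-2 (1.25), CG2065 (1.21), the villin-like Svil (1.10), the reticulon Rtnl1 (1.08), Gadd45 (1.02), hdly (0.99) and Ifrd1 (0.94), with adjusted p from 0.00065 to 0.030. Of the 14 JNK and wound genes 7 were tested and 3 rose, Mmp1 (log2 1.42 ± 0.34, adjusted p = 0.011), Ets21C (1.29 ± 0.28, adjusted p = 0.0039) and Gadd45, and the list had a median of 0.64 against -0.08 for all genes. Since these genes made the stress class, this is the same relation and not further evidence of it. Mmp1 and Ets21C were each higher in 5 of 6 tumors. Of the 11 listed regulators 4 were tested and Sumo fell, and none of the listed pathway targets passed the filter. The 5 largest falls were lncRNA:noe (log2 -2.31), nkd, a Wnt feedback gene (-2.16), HmgD, a chromatin protein (-1.52), the small heat-shock gene Hsp27 (-1.20) and ox, a subunit of respiratory complex III (-1.19).

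The number of ligand-positive cells was small, so the comparison was repeated, as a choice made after seeing the data, with all 658 ligand-positive cells of the 6 tumors at full depth, each against the ligand-negative cell of its tumor nearest in total UMIs. The drawn ligand-positive cells are among these cells, so the calls are not independent of the first ones. Of the 26 genes that had risen, 21 rose again (80.8% of them, and 30.4% of the 69 that rose there). They included Fas3, SCaMC, MRP, cv-2, Ets21C, Gadd45, hdly, Ifrd1, Rtnl1 and Svil. Of the 16 that had fallen, 4 fell again, HmgD among them, and lncRNA:noe (-0.12), Hsp27 (-0.25) and ox (-0.49) were not called. A second draw of 300 UMIs called 6 genes in place of 42. In upd2-positive cells alone 5 of 8 tested heat-shock genes were lower (Hsp23, Hsp26, Hsp27, Hsp70Bc and DnaJ-1, list median -1.80), where 1.13% of all 1240 genes tested were called lower. In depth-matched cells, where 2.08% of all genes were called, Hsp23 (-0.83), Hsp26 (-0.36) and Hsp27 (-0.71) were not called, and Hsp70Bc and DnaJ-1 were not tested.

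**Figure D4:**
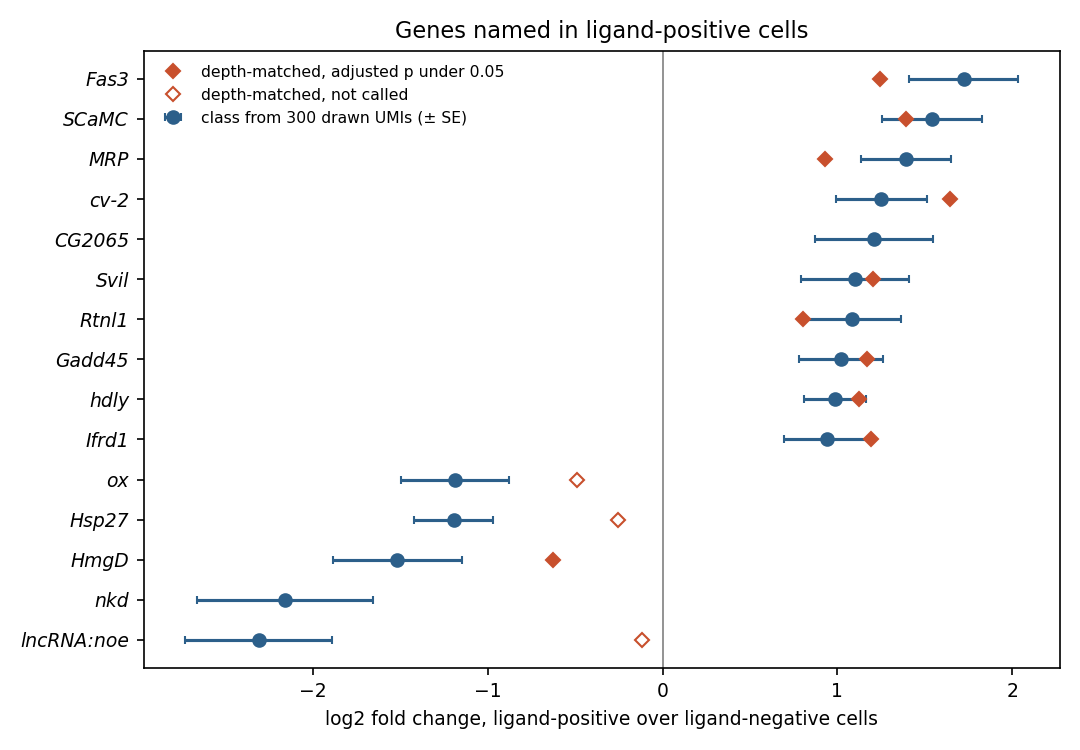
Log2 fold change of the 15 named genes in ligand-positive over ligand-negative cells of 6 tumors. Blue points (± SE) use the classes made from 300 drawn UMIs and red diamonds the depth-matched cells at full depth, filled where the adjusted p was under 0.05: the diamonds of Fas3, SCaMC and cv-2 stay above 1, and those of lncRNA:noe, Hsp27 and ox are open. CG2065 and nkd were not tested in the depth-matched cells.

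upd2 and upd3 were found together more often than their shares give. At 300 UMIs 12 cells of all libraries had both, where 3.98 would follow, and at full depth 194 had both. In upd3-positive cells upd2 was called higher (log2 2.33 ± 0.44, adjusted p = 7.1e-05), at 184 against 28.5 CPM in Tind1, 131 against 110 in Tind3 and 536 against 94.9 in Tind4, the 3 tumors with at least 10 such cells. There 0.673% of all genes were called higher and 0.841% in either direction. In upd2-positive cells upd3 was called higher (log2 1.77 ± 0.40, adjusted p = 0.0017, 3 of 4 tumors), at 96.1 against 53.3 CPM in Tind1, 486 against 116 in Tind3, 367 against 77.4 in Tind4 and 0 of 33 UMIs in Tind5, where 3.15% of all genes were called higher and 4.27% in either direction. dome, at 59.7 CPM in the pooled upd3-negative cells, did not pass the filter, while upd2, at 50.4 CPM there, did. upd2 thus entered that test at least in part through its level in the positive cells, so the filter favored a rise there. The same may hold for upd3, at 61.9 CPM in the pooled upd2-negative cells. dome was at 58.3 CPM in those cells and did not pass. Neither call is therefore read as a test of a rise, and the levels are a description. Both calls rest on few cells and few UMIs, and Tind4 held 24 of the 35 upd2 UMIs and 26 of the 32 upd3 UMIs in those positive cells. Neither call held in a second draw (adjusted p = 0.35 for upd2 and 0.38 for upd3), the call for upd2 was lost without Tind1 (0.30) or Tind4 (0.80), and that for upd3 without Tind3 (0.072) and by DESeq2 (0.22). In depth-matched cells neither gene passed the filter. There upd2 was at 60.9 against 15.6 CPM in Tind1, 193 against 30.6 in Tind2, 179 against 59.2 in Tind3, 275 against 64.5 in Tind4 and 263 against 71.4 in Tgrp, and had 0 UMIs in both classes of Tind5. upd3 was at 114 against 35.9 CPM in Tind1, 145 against 32.3 in Tind2, 383 against 76.9 in Tind3, 221 against 45.1 in Tind4, 240 against 0 in Tind6 and 128 against 59.5 in Tgrp, with 0 UMIs in both classes of Tind5. Tind6 had 9 upd3-positive cells, fewer than the 10 required, and is not given for upd2. Each gene was higher in every library listed for it where it was detected. Doublets were not removed, and their part in the co-detection was not tested.

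The feedback gene was then compared between ligand-positive and ligand-negative cells. With drawn classes Socs36E was higher in 6 of 6 tumors but not called (log2 0.28 ± 0.24, adjusted p = 0.61). With depth-matched cells it was at 837 against 573, 322 against 263, 830 against 563, 739 against 459, 526 against 278 and 613 against 454 CPM in Tind1 to Tind6 in turn, and was called 1.51-fold higher (log2 0.60 ± 0.15, adjusted p = 0.011), where 6.14% of 1124 genes were called higher and 7.38% in either direction. Tgrp had 560 against 422 CPM. The ranges of the classes overlapped between tumors, and the positive cells were higher within each. Stat92E was not called in either comparison (log2 -0.01 ± 0.37 and 0.12 ± 0.21), and dome and hop were not tested in them. For single ligands with depth-matched cells, Socs36E was called higher in upd3-positive cells (0.69 ± 0.18, adjusted p = 0.022, 5 of 5 tumors; 6.69% of all genes called). In upd2-positive cells it was not called (0.61 ± 0.18, adjusted p = 0.10), though higher in 6 of 6 tumors. Over the drawn cells of all libraries, upd2 and Socs36E were found together in 43 cells where 24.2 would follow. In the 6 individual tumors it was 16 where 8.64 would. Over all libraries upd3 and Socs36E were together in 16 where 17.7 would follow, and upd2 and dome in 0 where 3.29 would. The co-detection and the depth-matched calls thus did not single out the same ligand.

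Few other transcripts followed the pathway genes themselves. In Socs36E-positive cells, 30 to 295 a tumor, 6 of 2508 genes were called (0.239%), with 179 genes at an unadjusted p under 0.05. DESeq2 called 1 gene. In a second draw edgeR called 0 genes, with 115 at an unadjusted p under 0.05. Higher were CG11686 (log2 0.92 ± 0.18), lncRNA:alphagamma-element:CR32865 (0.71 ± 0.15), the heat-shock gene Hsp70Bc (0.60 ± 0.13) and Swim (0.54 ± 0.11), and lower were lncRNA:CR43264 (-0.48 ± 0.10) and lncRNA:CR34335 (-0.43 ± 0.05), with adjusted p from 3.2e-05 to 0.046. Of these 6 genes Hsp70Bc, Swim and lncRNA:CR34335 moved the same way in all 6 tumors. lncRNA:CR34335 alone took 161942 ± 54203 CPM of the positive and 196976 ± 59805 CPM of the negative cells (SD, n = 6). upd2 (0.20 ± 0.22), upd3 (0.17 ± 0.21), dome (0.32 ± 0.23) and Stat92E (0.04 ± 0.18) were not called there, with adjusted p from 0.87 to 1.0. In Stat92E-positive cells 5 of 1971 genes were called (0.254%) and in dome-positive cells 7 of 1748 (0.4%), none of them a JAK/STAT gene of the 7.

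Across the 7 libraries the genes whose log2(CPM + 1) followed each JAK/STAT gene most closely, among 4586 genes with at least 200 UMIs, were NLaz (r = 0.98), cad and SPoCk for upd2, cora (r = 0.98), Spn42Da and Ist1 for upd3, sip2 (r = 0.98), borr and CG41099 for dome, lncRNA:CR31044 (r = 0.97), CycC and CG10333 for hop, bor (r = 0.99), Polr3A and PolI for Stat92E, and mRpS24 (r = 0.99), CG34194 and CG10140 for Socs36E. These are Pearson correlations over 7 libraries that also differ in depth, and between 8 and 32 genes came within 0.05 of the highest value for each.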

How the data were processed

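Dissociated midgut tumors were profiled with a Chromium 3′ v3.1 kit, and the deposited counts are UMIs per gene and barcode that the authors made with Cell Ranger 6.0.1 on genome release 6.42. Barcodes with 100 to 2000 genes and at most 15% mitochondrial UMIs were kept here. Doublets were not removed. 300 UMIs were drawn without replacement from each cell with as many, and a cell was positive for a class with at least 1 drawn UMI of its genes. UMIs were then summed at full depth by tumor and class, where each class had at least 10 cells, and tested with edgeR 4.0.16 (R 4.3.3): TMM, filterByExpr, quasi-likelihood F test, tumor as block and Benjamini-Hochberg adjustment, with an adjusted p under 0.05 as a call. The classes of 1 tumor are paired because they are cells of that tumor. SEs are the log2 fold change divided by the square root of F. The group library of 6 tumors was left out of the fits and its values are shown beside them. The members and gene lists were chosen with earlier results of these data known. Named genes were the 7 JAK/STAT genes, the 10 largest rises and 5 largest falls in ligand-positive and Socs36E-positive cells among calls of 1 direction in every tumor, examples of the gene lists and, for likeness, the 3 highest correlations. Other genes named were chosen after their values were seen. Alternatives were DESeq2 1.42.0, no block, no filter, each tumor left out, the group library added, 500 UMIs, full-depth classes, a second draw, a mitochondrial limit of 30%, and cells left out. TMM factors left out and depth-matched cells were added after seeing the data. Poisson and exact binomial intervals (95%) cover counting error only. Whether the tumors came from separate flies is not given in the sources used here. The p-values therefore set the class difference within a tumor against its variation between these libraries only. Python 3.11.15 was used for the tables. The annotation positions come from Ensembl's release 6 annotation.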

Additional observations from a re-analysis of the deposited data

Results flagged for a closer look

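Of 19 values looked at over the 6 individual tumors, 2 had a sample far from the others by Dixon's ratio, and chance flags about 1 in 20 such groups. dome stood at 110 CPM in Tind6, on 25 UMIs, against 42.8 to 65.5 CPM in the other 5 tumors (ratio 0.66). The share of cells with a hop UMI among 300 drawn was 0% in Tind3, where 0 of 211 cells allows a share of up to 1.42%, against 0.366% to 0.581% in the other tumors (ratio 0.63), so at this depth the difference was not detectable.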

How the results depend on the processing

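Across 559 values of the JAK/STAT genes under the alternatives, 521 kept their side of the threshold, 29 lost a call, 9 gained one and 0 called values reversed, while 68 values called in neither fit changed sign. The calls of upd2 and upd3 in stress-marker-positive cells were lost only without the replicate block (adjusted p = 0.56 for both). Of the other 4 calls, 3 were lost in a second draw of 300 UMIs, and that of Socs36E in stress-marker-positive cells was lost with no filter (adjusted p = 0.33), without the 5% deepest cells (0.18) and without most single tumors. Causes were not tested. 2 other genes reversed: lncRNA:noe in ligand-positive cells, at 0.40 with a mitochondrial limit of 30%, and Hsp70Bc in Socs36E-positive cells, at -0.12 with full-depth classes.

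Genes called moved with the setting. Without the replicate block, ligand-, upd2-, upd3-, Socs36E-, Stat92E- and dome-positive cells and the division and stress classes gave 0 (edgeR, with 145, 119, 52, 22, 37, 37, 50 and 164 at an unadjusted p under 0.05), the progenitor class 8 and the enterocyte class 50. For ligand-positive cells (42 called) the count was 169 with no filter, 174 with Tgrp as a block, 131 with full-depth classes, 6 in a second draw, 86 with the 30% limit, 22 without Tind5 cells sharing a barcode with Tind4 and 83 depth-matched. For upd2-positive cells (53) it was 16 by DESeq2, 17, 158, 120, 16 and 111 under the first 5 of these settings in turn, 32 without the 5% deepest cells and 10 depth-matched. For upd3-positive cells (10) it was 0 with no filter (603 at an unadjusted p under 0.05) and without the shared barcodes (96), 16 without TMM factors, 47 with Tgrp, 20 with 500 UMIs, 69 at full depth, 4 in a second draw, 17 without the deepest cells and 70 depth-matched. For Socs36E-positive cells (6) it was 1 by DESeq2, 18 with no filter, 12 without TMM factors, 10 with Tgrp, 20 with 500 UMIs, 40 at full depth and 0 in a second draw (115). For Stat92E-positive cells (5) it was 0 by DESeq2 (50) and with the 30% limit (95), 25 with no filter, 2 without TMM factors, 16 with Tgrp, 11 with 500 UMIs, 18 at full depth, 9 without the shared barcodes and 3 without the deepest cells. For dome-positive cells (7) it was 18 with Tgrp, 141 at full depth and 0 by DESeq2 (22), in a second draw (95) and with the 30% limit (133). The progenitor class (429) gave 267 by DESeq2, 714 with Tgrp, 923 at full depth, 152 in a second draw and 217 without the deepest cells. The enterocyte class (360) gave 604 with no filter and 781 with Tgrp. The division class (53) gave 20 by DESeq2, 143 with no filter, 259 with Tgrp, 118 with 500 UMIs, 251 at full depth, 91 in a second draw and 35 with the 30% limit. The stress class (250) gave 160 by DESeq2, 653 with Tgrp, 562 with 500 UMIs and 551 with the 30% limit.

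Leaving out 1 tumor gave 15 to 65 calls for ligand-, 11 to 38 for upd2-, 2 to 28 for upd3-, 1 to 16 for Socs36E-, 2 to 15 for Stat92E- and 1 to 4 for dome-positive cells, and 213 to 442, 171 to 379, 8 to 97 and 87 to 286 for the progenitor, enterocyte, division and stress classes. The mean upd1 level was 1.56 CPM with the 30% limit. The mean share of hop-positive cells was 0.633% without the deepest cells, and with 500 UMIs drawn those of Stat92E and Socs36E were 4.47% and 18.1%.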
